A study of Mus musculus with 36 samples.

Results

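Day 3 cells of the *Bmp4*-induced primed to naïve transition (BiPNT), made without the DOT1L inhibitor SGC0946, were compared with the mouse epiblast stem cells (EpiSCs) from which the transition starts. The 4 libraries are 1 of Day 3 cells without SGC0946 and 3 of EpiSCs, out of 36 samples in the series and 11 bulk RNA libraries, and they were chosen by their labels. They share 1 list of genes. EpiSCs were kept in N2B27 medium with Activin A, bFGF and the tankyrase inhibitor XAV939 on serum-coated dishes. The transition medium of the first stage is based on iCD1 and contains Vitamin C, bFGF, LiCl, LIF, the GSK3 inhibitor CHIR99021, BMP4 and EPZ6438, an inhibitor of the H3K27 methyltransferase EZH2. The EZH2 inhibitor is thus part of the Day 3 medium and not of the EpiSC medium. Its effect and those of BMP4, the other differences in medium and 3 days of culture cannot be told apart. The study used EpiSCs derived from embryos and EpiSCs derived from ESCs with *Blimp1* and *Stella* reporters. Which of these gave each library, and whether Day 3 and EpiSCs belong to 1 experiment, was not established here. A difference of line or experiment thus cannot be told apart from day either. Day 3 has 1 library, so its own variation between cultures was not measured. Whether the 3 EpiSC libraries came from separate cultures is not stated, and their spread may be technical.

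EpiSCs represent the primed state of pluripotency, that of the epiblast after implantation. They depend on Activin/Nodal and FGF signals and express *Pou5f1*, *Otx2*, *Fgf5* and *Dnmt3b*. BMP4 signals through SMAD1 and SMAD5 to targets such as the ID and MSX genes, and in the early embryo it acts on extra-embryonic mesoderm, amnion and the precursors of germ cells. *Igf2*, *Vim* and *Gata2* were named as markers of the Day 3 cells. They encode an imprinted growth factor of the fetus and placenta, an intermediate filament protein of mesenchymal cells and a transcription factor of trophoblast and blood.

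The libraries hold 2444211 to 3070115 expected counts in EpiSCs and 4577685 at Day 3. A gene was called when it differed by more than 2-fold, had an adjusted p under 0.05 (edgeR quasi-likelihood test, Benjamini-Hochberg) and had a 95% counting interval at Day 3 that lay outside the range of the 3 EpiSC libraries. The fit assumes that the lone Day 3 library varies as EpiSC libraries do. Of 12038 genes tested, 1676 (13.9%) were called higher at Day 3 and 1183 (9.83%) were called lower, and the median log2 fold change of all tested genes was 0.02. Of the higher genes, 617 had enough counts to be tested only because of Day 3, and 120 had no count in any EpiSC library. The 617 are among 772 tested genes that passed the filter only through Day 3, and for these the filter set the direction of the difference. Of the lower genes, 390 were tested only because of EpiSCs, and 53 had no count at Day 3. Among the 11266 genes with enough counts in EpiSCs, 1059 were higher and 1183 lower. Changes above 16-fold were fitted for 368 of the higher and 156 of the lower genes. Between 4.15% and 4.54% of the tested genes differed by more than 2-fold between any 2 EpiSC libraries, and 26% to 27.4% between Day 3 and an EpiSC library. EpiSC replicate 1 had higher immediate-early transcripts than the other EpiSC libraries (*Fos*, named after its values were seen, at 653.6 against 105 and 98.7 TPM). Some calls named in the text were lost in an alternative fit. With all 7 libraries on this gene list, the calls of *Etv4*, *Etv5*, *Foxc1*, *Tead3*, *Pim1*, *Pim3*, *Cdh2*, *Esrp1*, *Phf19* and *B2m* were lost. DESeq2 lost those of *Ifitm1*, *Pdgfra*, *Pecam1* and *Cdkn1c*. With limma-trend, those of *Sox2*, *Etv5*, *Tead3*, *Pim1* and *Pim3* were lost, and scaling by library size alone also lost that of *Etv5*. At the threshold, the smallest called rise was 1.0026 and the largest rise below it 0.9998 on the log2 scale.

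**Figure D1:**
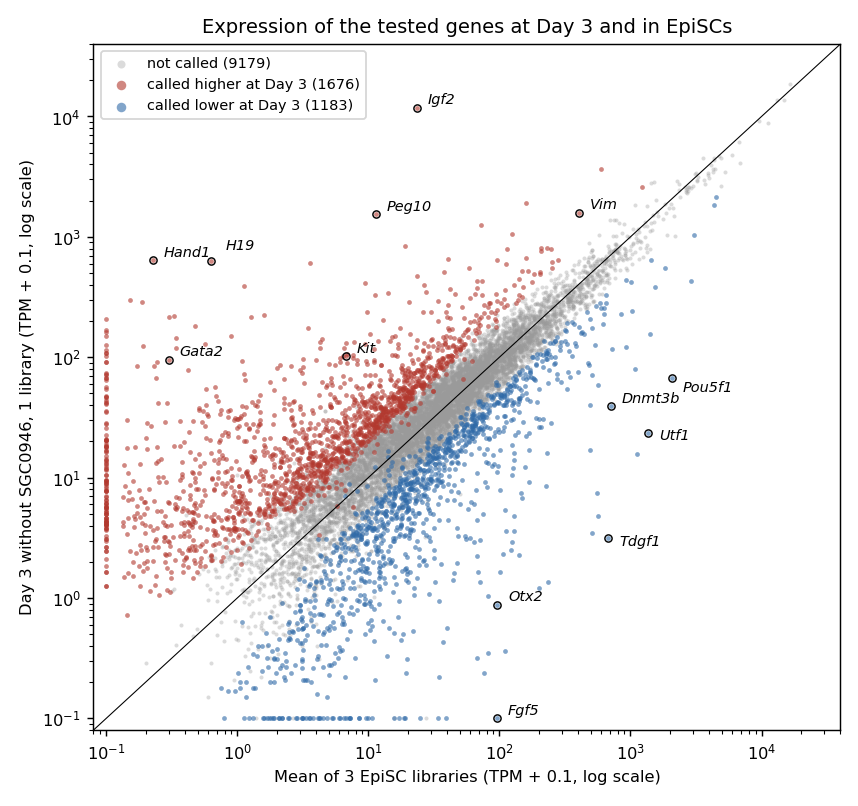
Each point is 1 of the 12038 tested genes, with its mean over the 3 EpiSC libraries on the horizontal axis and its value in the single Day 3 library on the vertical axis (both TPM + 0.1, log scale), coloured by call. *Igf2* at 11786 TPM and *Peg10* at 1538.4 TPM lie far above the diagonal, and *Pou5f1*, *Utf1* and *Tdgf1* are the labelled genes with high EpiSC levels that lie far below it.

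The 3 markers were all higher at Day 3. *Igf2* (ENSMUSG00000048583, chr7:142650766-142666816 of GRCm38, minus strand) had 24.9, 21.9 and 23.4 TPM in EpiSC replicates 1, 2 and 3 and 11786 TPM at Day 3, a 509.4-fold rise (log2 fold change 8.99 ± 0.05 SE, edgeR adjusted p = 3.35e-17). It took 1.25% of all counts at Day 3 (exact 95% interval 1.237% to 1.258%, counting error only), the largest share of any gene there, against 0.00218% to 0.00241% in EpiSCs. *Vim* (ENSMUSG00000026728, chr2:13573927-13582826, plus strand) was already expressed in EpiSCs, at 441.9, 381.5 and 393.4 TPM, and reached 1589 TPM, a 3.63-fold rise (1.86 ± 0.11 on the log2 scale). *Gata2* (ENSMUSG00000015053, chr6:88193891-88207032, plus strand) had 1, 2 and 0 counts in the EpiSC libraries and 721 at Day 3, where its level was 95.1 TPM, and it was tested only through its Day 3 counts. The ratio of its CPM was 423.3 with a 95% counting interval of 144.3 to 2057.3. For each marker the Day 3 value lay above all 3 EpiSC values. In bulk RNA, more cells of a type and more RNA per cell cannot be told apart.

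Promoters of the 3 markers are shown with those of *Cdx2*, the transcription factor that activates posterior HOX genes and that had no count in EpiSCs, and of *Fgf5*, a primed epiblast growth factor that had no count at Day 3. They run from 250 bases before to 50 bases after the start of transcription (RefSeq, GRCm38.p6). Capitals mark letters of 6 motifs searched on both strands, none of which contains another. GATA factors are known to bind AGATAA, CDX proteins bind sites such as TTTATG, and OCT4 binds the octamer ATGCAAAT. The core promoter element searched was TATAAA, the letters for BMP-activated SMAD proteins were GGCGCC, and those for the WNT effectors TCF and LEF were CTTTGA. The windows are chr7:142666767-142667066 on the minus strand for *Igf2* (1 of 4 listed starts), chr2:13574061-13574360 on the plus strand for *Vim*, chr6:88198414-88198713 on the plus strand for *Gata2* (1 of 2 listed starts), chr5:147307200-147307499 on the minus strand for *Cdx2* and chr5:98253934-98254233 on the plus strand for *Fgf5*.
Igf2: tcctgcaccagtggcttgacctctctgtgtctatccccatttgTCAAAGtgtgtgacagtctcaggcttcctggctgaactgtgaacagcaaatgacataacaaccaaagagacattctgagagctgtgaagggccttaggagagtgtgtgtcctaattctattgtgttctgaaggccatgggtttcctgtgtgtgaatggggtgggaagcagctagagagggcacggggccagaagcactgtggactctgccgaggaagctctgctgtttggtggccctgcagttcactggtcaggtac
Vim: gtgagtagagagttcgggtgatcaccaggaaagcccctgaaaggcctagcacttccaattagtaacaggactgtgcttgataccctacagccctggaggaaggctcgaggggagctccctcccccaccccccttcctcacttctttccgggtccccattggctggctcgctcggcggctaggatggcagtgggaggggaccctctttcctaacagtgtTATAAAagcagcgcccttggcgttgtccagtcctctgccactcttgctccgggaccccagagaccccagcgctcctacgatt
Gata2: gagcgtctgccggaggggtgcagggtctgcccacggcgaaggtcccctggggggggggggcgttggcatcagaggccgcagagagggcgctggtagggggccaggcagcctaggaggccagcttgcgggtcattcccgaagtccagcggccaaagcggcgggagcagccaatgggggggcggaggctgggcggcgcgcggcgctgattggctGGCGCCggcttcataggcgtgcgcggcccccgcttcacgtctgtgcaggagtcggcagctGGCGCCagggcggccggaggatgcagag
Cdx2: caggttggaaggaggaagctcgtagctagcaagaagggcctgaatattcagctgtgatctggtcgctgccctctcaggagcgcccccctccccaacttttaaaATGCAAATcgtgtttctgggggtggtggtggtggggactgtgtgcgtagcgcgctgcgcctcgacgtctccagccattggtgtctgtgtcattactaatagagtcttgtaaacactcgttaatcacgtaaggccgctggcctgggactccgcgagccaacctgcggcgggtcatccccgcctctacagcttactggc
Fgf5: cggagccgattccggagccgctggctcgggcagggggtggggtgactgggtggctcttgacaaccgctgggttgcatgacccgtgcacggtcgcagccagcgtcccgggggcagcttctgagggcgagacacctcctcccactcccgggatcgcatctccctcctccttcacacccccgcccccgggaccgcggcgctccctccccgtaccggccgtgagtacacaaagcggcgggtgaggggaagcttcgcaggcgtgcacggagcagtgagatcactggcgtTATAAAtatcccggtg

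*Vim* holds TATAAA 32 bases before its start (offset -32) and *Gata2* holds GGCGCC at offsets -38 and 22. *Cdx2* holds the octamer at offset -147, *Fgf5* holds TATAAA at offset 34, and *Igf2* holds the TCF/LEF letters on the other strand, at offset -207. A match is a description and not a site. Where a gene had more than 1 listed start, the first window that held a match was printed. *Gata2* is shown at window 2 of 2, since the window before it held no match. That its printed window holds a match thus follows from the choice. The shares below use the first listed window of each gene. The TATA letters were found in 8.3% of 1229 promoters of higher genes, 7.8% of 879 of lower genes and 6.3% of 9303 of all tested genes. The BMP-SMAD letters were found in 23.8%, 21.4% and 23.1%, the GATA letters in 4.6%, 5.7% and 5.4%, the CDX letters in 5.6%, 6.4% and 5.4%, the TCF/LEF letters in 10.8%, 11.8% and 11.3%, and the octamer in 1.5%, 2.4% and 1.4%. Over all 27025 promoters of the table, which include many genes not tested here, the shares were 14.2% for TATA, 12.0% for BMP-SMAD, 11.4% for GATA, 12.1% for CDX, 16.2% for TCF/LEF and 1.8% for the octamer. These shares were not tested.

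Over all tested genes, 13.9% were called higher and 9.83% lower, and the list counts below are to be read beside these shares. Of the 29 gene lists, primed pluripotency had the lowest median. Of 14 listed and tested, 11 were lower and none was higher, 5 of the 14 had enough counts only in EpiSCs, and the median log2 fold change was -5.11 against 0.02 over all tested genes. *Fgf5* had 108.8, 89.3 and 89.2 TPM in EpiSCs and no count at Day 3, and was at least 196.7-fold lower against the 3 counts that a count of 0 allows. *Otx2*, which sets the primed enhancer pattern, had 117.3, 83.8 and 87.4 TPM in EpiSCs and 0.78 TPM (1 count) at Day 3. *Zic2* fell from 243.1, 225.9 and 241.5 to 1.25 TPM and *Zic5*, of the same zinc finger family, from 106.8, 100.6 and 123.8 to 0.26 TPM. The POU factor gene *Pou3f1* fell 68.3-fold (log2 -6.09 ± 0.33), from 120.5 to 176.9 TPM to 2.19 TPM. *Utf1*, a chromatin factor of pluripotent cells, fell 61.0-fold from between 1264.8 and 1455.8 TPM to 23.6 TPM. The 3 members not called were *Lin28a* (log2 -0.53), *Lin28b* (-0.28) and *Sall2* (-0.67), the first 2 of which encode RNA-binding proteins that block let-7 maturation.

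Genes that serve pluripotency in general fell less evenly. Of 10 listed and 8 tested core genes, 5 were lower and none was higher. *Pou5f1*, the gene for OCT4, had 2056.8, 2059.2 and 2077.6 TPM in EpiSCs and 67.3 TPM at Day 3, a 33.1-fold fall (log2 -5.05 ± 0.09, edgeR adjusted p = 6.28e-12), and an antisense gene shares 12.6% of its transcript. *Nanog* fell 21.0-fold, from 105.3, 187.4 and 143.8 to 7.38 TPM. *Sox2* fell only 2.49-fold, from 172.5, 101.8 and 126.6 to 57.7 TPM (log2 -1.32 ± 0.24). The RNA-binding protein gene *L1td1* fell by 5.25 on the log2 scale, from between 455.4 and 529.3 to 17.0 TPM. *Sall4*, a zinc finger partner of OCT4, had a log2 fold change of 0.74 and stayed below the 2-fold threshold, and *Trim71* (0.05) and *Zfp281* (-0.25) were not called. The 4 EpiSC markers *Pou5f1*, *Otx2*, *Dnmt3b* and *Fgf5* together made up 2961.5 to 2964.5 TPM in EpiSCs and 107.2 TPM at Day 3. The source field of the Day 3 library's label reads epiblast stem cell, and whether this names the starting cells or the sequenced cells is not stated.

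**Figure D2:**
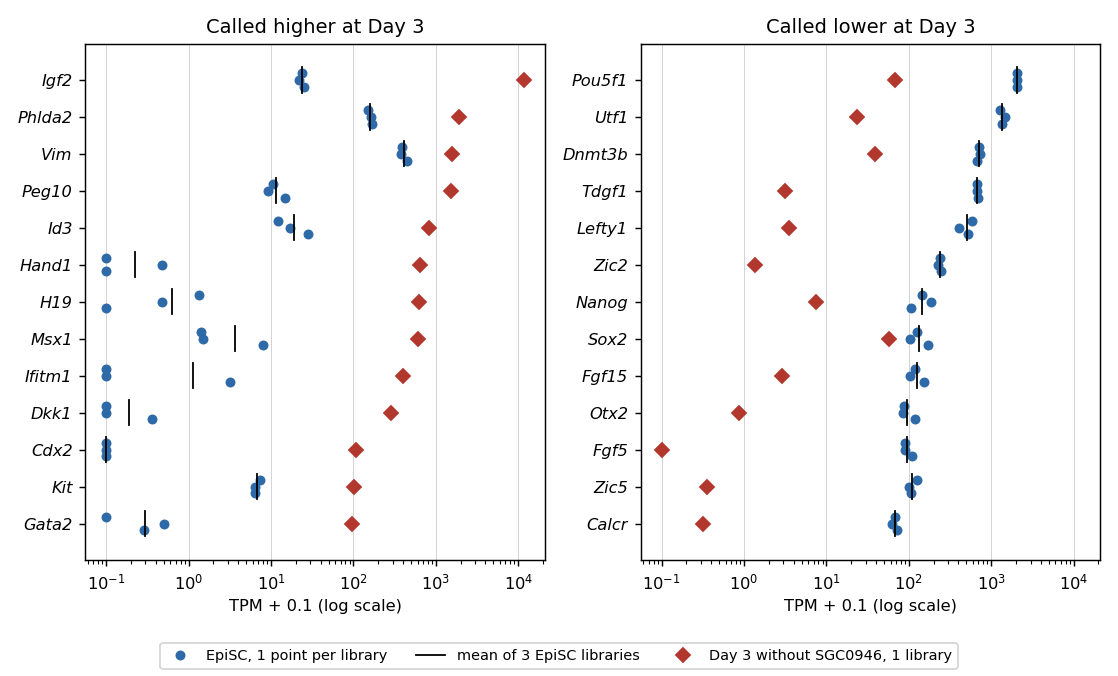
TPM + 0.1 on a log scale for 13 genes called higher (left) and 13 called lower (right), with 1 blue point for each EpiSC library, a black line at their mean and a red diamond for the single Day 3 library. In every row shown the diamond lies outside the 3 blue points, and *Sox2* has the smallest gap of the lower genes, at 57.7 TPM against 101.8 to 172.5 TPM.

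Of 13 Nodal and Activin genes, 11 were tested, 7 were lower and none was higher (median log2 fold change -1.46), and 4 of the 11 had enough counts only in EpiSCs. *Tdgf1*, the Nodal co-receptor, fell 236.4-fold, from 694.2, 673.5 and 666.3 to 3.03 TPM (log2 -7.88 ± 0.16). *Lefty1*, a target and inhibitor of Nodal, fell 141.8-fold, from 516.6, 408.0 and 589.3 to 3.40 TPM, and *Nodal* itself fell 33.3-fold, from between 60.5 and 76.0 to 2.12 TPM. The mediator *Foxh1* fell from 110.7, 122.9 and 137.8 to 39.7 TPM. The mediator genes *Smad2* (log2 0.62) and *Smad3* (0.86) and the receptor gene *Acvr2b* (0.12) were not called. With all 7 libraries of this gene list in the fit, 4 genes of the list were called lower instead of 7.

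Of 16 FGF and ERK feedback genes, 15 were tested, 7 were lower and 3 were higher, with a median log2 fold change of -0.05. The lower genes include 3 ligands, which had enough counts only in EpiSCs. *Fgf4* had 18.3, 21.4 and 17.4 TPM in EpiSCs and no count at Day 3, at least 48.2-fold lower. *Fgf15* fell 47.8-fold, from 151, 102.6 and 120 to 2.83 TPM, and *Fgf8* fell from 31.9, 26.3 and 37.8 to 1.26 TPM (2 counts). The feedback genes moved both ways. *Dusp4* rose (log2 2.02 ± 0.20) and *Spry1* rose (1.84 ± 0.21), while the ERK target genes *Etv4* (-1.33 ± 0.15) and *Etv5* (-1.05 ± 0.09) fell. *Dusp6* had 444.2, 203.5 and 142.6 TPM in EpiSCs and 90.3 TPM at Day 3, with a log2 fold change of -1.66, or -1.05 without EpiSC replicate 1. Its call was lost with all 7 libraries, effective length offsets, DESeq2, limma-trend and a fold change over 4. The receptor gene *Fgfr2* had 8.53, 2.29 and 2.53 TPM in EpiSCs and 23.9 TPM at Day 3 (log2 2.27 ± 0.42). Its log2 fold change was 3.01 without EpiSC replicate 1, and its call was lost with limma-trend. *Fgfr1* had a log2 fold change of 0.91 and was not called.

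The largest falls also held genes of other kinds. *Calcr*, the calcitonin receptor gene, had 72.3, 61.9 and 68.6 TPM in EpiSCs and 1 count (0.22 TPM) at Day 3, a ratio of CPM of 0.00168 (95% counting interval 4.25e-05 to 0.00938). *Mmp25*, a matrix metalloprotease gene, had 82.6, 79.5 and 84.0 TPM and then 2 counts (0.25 TPM). The neuropeptide gene *Npy* had 221.6, 178.9 and 202.9 TPM and then 1 count. Among the largest rises, *Nrp1*, a receptor for semaphorins and VEGF, had no count in EpiSCs and 593 counts (41.5 TPM) at Day 3, at least 100.4-fold higher.

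Most naive pluripotency genes stayed low. Of 17 listed, 10 had enough counts, 4 were higher and 1 was lower, and the one that fell, *Fgf4*, is named above. *Dppa3*, also called *Stella*, had no count in EpiSCs and 3 counts (2.49 TPM) at Day 3, and *Dppa5a* had 2, 0 and 0 counts in EpiSCs and 2 at Day 3. *Esrrb*, a central naive factor, had 0.72, 0.6 and 1.28 TPM in EpiSCs and 3.48 TPM at Day 3. *Tfcp2l1* reached 3.62 TPM from 0.32 to 1.08 TPM. Neither call held without EpiSC replicate 3 or with DESeq2. The list's largest rise was *Tbx3*, which is also a mesoderm and BMP target gene, from 0, 0 and 1 counts to 2586 counts (296 TPM). *Klf2* had 48.9, 6.31 and 6.30 TPM in EpiSCs and 15.6 TPM at Day 3. Its log2 fold change was -0.54 (not called) and 1.21 without EpiSC replicate 1.

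Germ cell genes split into those that were expressed at Day 3 and those that were not. Of 15 listed, 7 were tested and all 7 were higher, but 4 of these had enough counts only at Day 3. The 3 others were all higher. *Prdm1*, also called *Blimp1*, had 0.54, 0.24 and 0.29 TPM in EpiSCs and 29.6 TPM at Day 3, and *Tfap2c* had 0.68, 0.71 and 0.86 TPM and then 35.5 TPM. *Kit*, the receptor of the sort at Day 3, rose 16.8-fold from 6.24, 6.34 and 7.27 to 101.9 TPM (log2 4.07 ± 0.16). *Ifitm3*, also called *Fragilis*, rose 14.2-fold from between 25.7 and 28.6 to 395.7 TPM, and *Alpl*, the alkaline phosphatase of pluripotent and germ cells, rose 7.12-fold to 85.4 TPM. *Ifitm1* had 3, 0 and 0 counts in EpiSCs and 431 counts (394.3 TPM) at Day 3. *Prdm14* had 1 count at Day 3, *Nanos3* had 2, and *Dnd1* had 7, and none of these had enough counts to be tested. Of genes that act in later germ cells, all named after their values were seen, the RNA helicase gene *Ddx4* had 1 count at Day 3 and *Dazl*, *Mael* and *Sycp3* had none.

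Of 24 listed BMP ligands, SMAD genes and targets, 23 were tested, 18 were higher, 5 were not called and none was lower. Among the 12 that had enough counts in EpiSCs, 7 were higher, and the summed level of the list went from between 245.7 and 397.2 to 3580.3 TPM. The ID genes encode inhibitors of helix-loop-helix factors. *Id3* rose 43.6-fold, from 28.1, 16.9 and 12.0 to 834.3 TPM, *Id1* rose 15.0-fold, from 60.7, 28.3 and 33.3 to 658.1 TPM, and *Id2* rose by 3.70 on the log2 scale, from 36.7, 8.10 and 16.1 to 285.2 TPM. EpiSC replicate 1 had the highest EpiSC level of these 3 genes, and without it the log2 fold change of *Id3* went from 5.45 to 6.06 and that of *Id2* to 4.51. The homeobox gene *Msx1* had 7.85, 1.41 and 1.3 TPM in EpiSCs and 611.1 TPM at Day 3, a 153.6-fold rise (log2 7.26, or 8.68 without EpiSC replicate 1). *Msx2* had 0, 1 and 1 counts and then 1188 counts (214.4 TPM). Of the T-box and DLX targets, *Tbx2* was at least 59.6-fold higher and *Dlx5* at least 37.9-fold higher than EpiSCs, where neither had a count. The inhibitory gene *Smad6*, named after its values were seen, rose 14.4-fold to 105.7 TPM, whereas *Smad7*, which also inhibits Activin signals, had 133.7, 65.6 and 69.5 TPM in EpiSCs and 62.3 TPM at Day 3 (log2 -0.67, not called). The receptor gene *Bmpr1a* (log2 0.72) and the mediator gene *Smad5* (0.87) were not called.

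HOX genes were nearly absent from EpiSCs and present from all 4 clusters at Day 3. The 39 listed genes summed to 2.82, 3.23 and 2.99 TPM in EpiSCs and to 1619.5 TPM at Day 3, and 29 of the 39 had no count in any EpiSC library. All 32 that were tested were called higher. All 32 passed the filter on low counts only through Day 3, so this count supports nothing beyond the levels. *Hoxc10* (ENSMUSG00000022484, chr15:102966796-102971893, plus strand) was the highest at 207.9 TPM and at least 149.8-fold above EpiSCs, with 8.8% of its transcript shared with *Hoxc5*. *Hoxa9* reached 166.8 TPM (at least 112.1-fold), *Hoxd9* 125.4 TPM (at least 102.4-fold) and *Hoxc9* 114.2 TPM (at least 104.8-fold). *Hoxb2* went from 0, 1 and 1 counts to 442 counts (119.1 TPM), and an antisense gene shares 19.1% of its transcript.

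By position, 11 of 12 genes of paralogs 1 to 4, 11 of 11 of paralogs 5 to 8, 7 of 7 of paralogs 9 to 10 and 3 of 9 of paralogs 11 to 13 were called. The summed Day 3 levels of these 4 groups were 312.6, 522.1, 739.8 and 45.0 TPM. Of the 9 genes of paralogs 11 to 13, 4 had no count at Day 3. *Hoxc13* was at 3 counts and *Hoxd13* at 7 counts against 1 to 5 in EpiSCs. All 11 listed genes of the *Hoxa* cluster, its paralogs 11 and 13 included, were called higher. By cluster the sums were 357.5 TPM for *Hoxa*, 462.3 for *Hoxb*, 593.9 for *Hoxc* and 205.9 for *Hoxd*. Promoters were listed for 22 of the 39 genes. The CDX letters were in 5 of them (22.7%), against 5.4% of the promoters of tested genes and 12.1% of all promoters in the table. The TATA, BMP-SMAD and TCF/LEF letters were each in 3 (13.6%), against 6.3%, 23.1% and 11.3% of the promoters of tested genes. The GATA letters and the octamer were in none. The median GC content of the HOX promoters was 56.8%, against 62.0% for those of tested genes. These shares describe few promoters and were not tested.

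**Figure D3:**
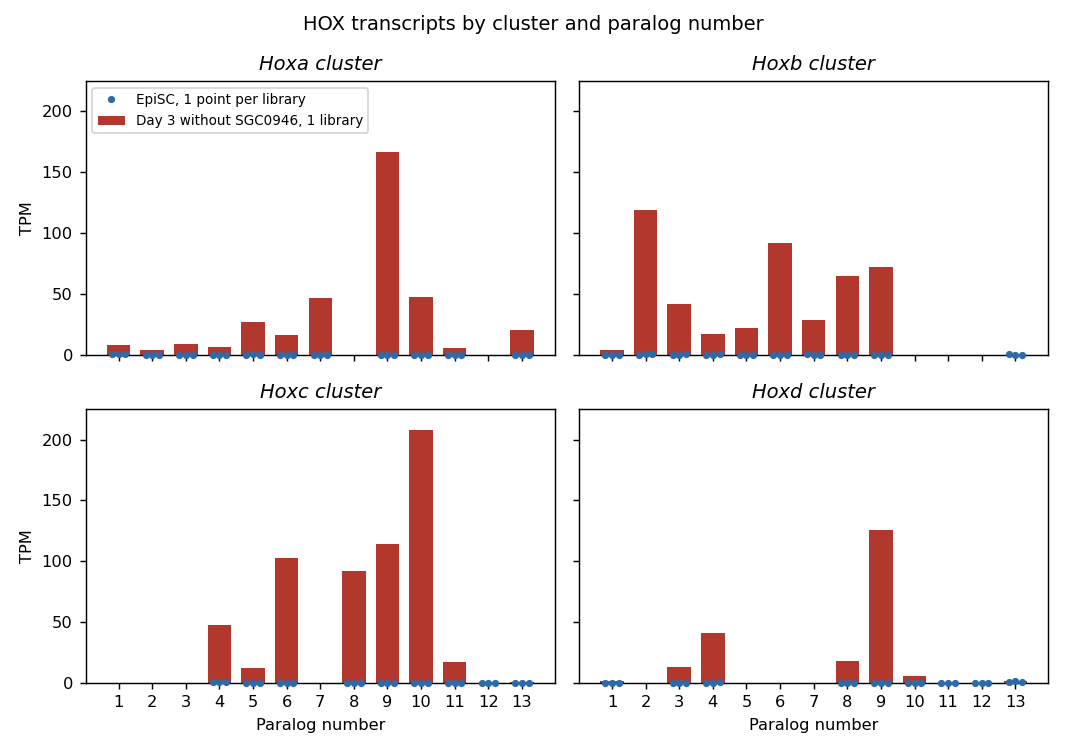
Bars give the TPM of each HOX gene in the single Day 3 library without SGC0946, by cluster and paralog number, and blue points give the 3 EpiSC libraries, which lie at or close to 0. The tallest bars are paralog 10 of *Hoxc* at 207.9 TPM and paralog 9 of *Hoxa* at 166.8 TPM, and paralogs 11 to 13 are low in all 4 clusters.

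The regulators and cofactors of HOX proteins were also present. Of 11 listed, 9 were tested and 8 were higher, 5 of the 9 through Day 3 counts only. *Cdx2* (chr5:147300805-147307270, minus strand) had no count in EpiSCs and 554 counts (107.8 TPM) at Day 3, at least 93.8-fold higher, while *Cdx1* had 1 count at Day 3 and *Cdx4* none. The TALE cofactor gene *Meis2* was at 149.2 TPM, at least 126.0-fold higher, and *Meis3*, which EpiSCs already express at 11.7, 15.1 and 16.9 TPM, rose 5.06-fold to 66.0 TPM. *Evx1*, which lies beside the *Hoxa* cluster, had no count in EpiSCs and 56.2 TPM at Day 3. *Pbx2* rose by 1.01 on the log2 scale and fell below the threshold in 5 alternatives, and *Pbx3* (-0.46) was not called.

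Trophoblast genes were called in both directions, and the markers that define the lineage were not all present. Of 28 listed genes, 22 were tested, 19 were higher and 1 was lower, and 14 of the 22 had enough counts only at Day 3. Of the 8 with enough counts in EpiSCs, 6 were higher and 1 was lower, where 1059 of all 11266 such genes were higher. Of the 7 defining markers, *Cdx2*, *Gata2*, *Gata3*, *Krt8* and *Plac1* were higher, *Eomes* was lower and *Elf5* had no count in any of the 4 libraries. *Hand1*, a factor of trophoblast giant cells and of lateral mesoderm, had 0, 1 and 0 counts in EpiSCs and 2693 counts (636.4 TPM) at Day 3. *Krt8* and *Krt18*, the keratins of simple epithelia, rose 22.7-fold to 236.5 TPM and 22.6-fold to 340.9 TPM. *Gata3* had 2, 1 and 0 counts and then 365 counts (54.4 TPM), *Plac1* had 0, 4 and 0 counts and then 88 counts (38.9 TPM, a call that DESeq2 did not make) and *Tead3* rose by 1.37 on the log2 scale. *Eomes*, a factor of trophoblast stem cells and of primitive streak, had 7.91, 5.58 and 5.04 TPM in EpiSCs and 0.27 TPM (2 counts) at Day 3. *Ets2* (0.87) and *Tead4* (0.70) were not called. Of the GATA family, *Gata6* had 0, 1 and 0 counts in EpiSCs and 133 counts (17.8 TPM) at Day 3 and *Gata5* none and then 35 counts, while *Gata4* (9 counts at Day 3) and *Gata1* (none) were too low to test.

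Of 12 amnion and non-neural ectoderm genes, 8 were tested. The 6 called higher all had enough counts only at Day 3, so the filter set their direction, and neither of the 2 with enough counts in EpiSCs was called. *Isl1* had no count in EpiSCs and 42.0 TPM at Day 3, *Tfap2a* had 1, 0 and 0 counts and then 570 counts (84.9 TPM), and *Wnt6* was at least 109.7-fold higher at 163.3 TPM. *Igfbp3* had a log2 fold change of -0.55 and was not called. Of 20 mesoderm genes on the second list, 14 were tested, 13 were higher and none was lower, and 10 of the 14 had enough counts only at Day 3. Of the other 4, 3 were higher. The higher genes include *Snai2*, which rose to 65.8 TPM from 1.67 to 2.88 TPM, *Prrx2*, which rose to 61.5 TPM from 5.25 to 8.83 TPM, and *Ahnak*. *Wt1* (log2 -0.34) was not called.

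Of 17 streak and mesoderm genes, 8 were tested, 5 were higher and 2 were lower, and of the 4 with enough counts in EpiSCs 1 was higher and 2 were lower. *T*, also called *Brachyury*, had 6, 1 and 4 counts in EpiSCs and 9 counts at Day 3 and was too low to test, and *Eomes* and *Fgf8* were lower. *Foxc2* and *Meox1*, factors of paraxial mesoderm, had no count in EpiSCs and 35.2 and 6.92 TPM at Day 3. *Pdgfra* had 0, 0 and 2 counts and then 124 counts (7.78 TPM), and *Foxc1* rose by 2.07 on the log2 scale.

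The 29 listed imprinted genes, which are expressed from the copy of 1 parent, summed to between 2750.9 and 2893 TPM in EpiSCs and to 21294.6 TPM at Day 3, of which *Igf2* gave 11786 TPM. Of 25 tested, 17 were higher and 1 was lower, and of the 18 with enough counts in EpiSCs 11 were higher. *H19*, the noncoding neighbour of *Igf2* (chr7:142575529-142578143, minus strand), had 0, 1 and 1 counts in EpiSCs and 3125 counts (627.6 TPM) at Day 3. *Peg10*, a retrotransposon-derived gene needed in the placenta, rose 143.8-fold from 14.5, 9.13 and 10.4 to 1538.4 TPM (log2 7.17 ± 0.07) and took 0.509% of the Day 3 counts. *Phlda2*, which restrains placental growth, rose 11.5-fold from 169, 161.7 and 149.4 to 1921.5 TPM. *Mest* rose 7.54-fold to 1062.2 TPM, with 34.2% of its transcript shared with a gene on the other strand. *Snrpn* was the one that fell, 6.61-fold from between 713.8 and 731.3 to 116.9 TPM. *Meg3* (log2 -0.96), *Plagl1* (0.18) and *Gnas* (0.68) were not called. Genes expressed from the paternal copy (*Igf2*, *Peg10*, *Mest*) and from the maternal copy (*H19*, *Phlda2*, *Igf2r*) were both among those that rose, and allele-specific values were not measured.

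Receptors and binding proteins of the IGFs changed in both directions. *Igf2r*, the receptor that clears IGF2, rose 8.02-fold from 28.5, 36.1 and 36.6 to 291.3 TPM. *Igfbp4* rose 17.7-fold to 475.4 TPM and *Igfbp5* rose 48.8-fold to 174.1 TPM, while *Igfbp2*, the main binding protein of EpiSCs, fell 4.54-fold from 1001.4, 1091.7 and 1001.2 to 240.6 TPM. The *Igf2* mRNA-binding protein genes *Igf2bp1* (log2 -0.46), *Igf2bp2* (0.69) and *Igf2bp3* (-0.18) were not called. In all, 5 of 12 tested members of this list were higher and 1 was lower.

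WNT pathway genes were mixed. Of 22 listed, 18 were tested, 11 were higher and 2 were lower, and 7 of the 18 had enough counts only at Day 3. *Axin2*, a common WNT target, rose 16.1-fold from 4.41, 9.26 and 5.32 to 101.6 TPM, whereas *Lef1* (log2 -0.05) and *Tcf7* (0.21) were not called. *Dkk1*, a secreted WNT inhibitor, had 1, 0 and 0 counts in EpiSCs and 1598 counts (287.7 TPM) at Day 3. Of the ligands, *Wnt5a* had 0, 1 and 1 counts and then 813 counts (85.3 TPM), and the receptor gene *Fzd10* rose by 3.41 on the log2 scale. The inhibitor gene *Sfrp1* fell from 50.4, 55.4 and 58.1 to 3.16 TPM, and *Ccnd1* fell 4.36-fold. EpiSC medium contains XAV939, which lowers WNT signalling, and the Day 3 medium contains CHIR99021 and LiCl, which raise it. The part of the media in these changes was not tested.

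For LIF signalling, 10 of 11 genes were tested, 5 were higher and 2 were lower. *Lifr* and *Il6st*, the receptor subunits, rose by 2.78 and 1.32 on the log2 scale, and *Stat3* rose 7.84-fold from between 10.3 and 11.3 to 91.3 TPM. The target gene *Socs3* had 51.0, 14.2 and 13.2 TPM in EpiSCs and 111.6 TPM at Day 3, with a log2 fold change of 1.99, or 2.92 without EpiSC replicate 1, and a call lost with all 7 libraries, DESeq2 and limma-trend. *Klf4* had a log2 fold change of -1.38 and was not called. *Pim1* and *Pim3* fell by 1.44 and 1.21 on the log2 scale. Of 17 retinoic acid genes, 10 were tested, 6 were higher and none was lower, and 4 of the 10 had enough counts only at Day 3. *Crabp1* and *Crabp2*, which bind retinoic acid in the cytoplasm, rose 40.9-fold to 411.2 TPM and 12.2-fold to 350.1 TPM. *Cyp26b1*, which degrades it, had no count in EpiSCs and 20.7 TPM at Day 3, and *Rara* (log2 0.48), *Rarg* (-0.77) and *Rxra* (0.41) were not called.

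Several genes of epithelial adhesion fell and several mesenchymal genes rose, with exceptions in both groups. *Cdh1*, the gene for E-cadherin, fell 7.68-fold from 102.8, 88.2 and 71.4 to 12.3 TPM, and *Epcam* fell 8.27-fold from 213, 202.2 and 191.5 to 26.2 TPM. *Cldn6*, a tight junction gene, and *Esrp1*, a regulator of epithelial splicing, fell by 2.45 and 2.61 on the log2 scale. *Cdh2*, the gene for N-cadherin, rose by 1.10, and *Snai1* had 5, 0 and 2 counts in EpiSCs and 229 counts (64.8 TPM) at Day 3. *Fn1*, fibronectin, rose by 2.53 from 68.4, 68.7 and 64.3 to 372.4 TPM. The list as a whole had 10 of 20 tested genes higher and 6 lower, with 7 of the 20 tested through Day 3 counts only. *Tagln*, a smooth muscle and mesenchyme gene, was lower (log2 -1.53 ± 0.47), a call lost with all 7 libraries, effective length offsets, DESeq2 and limma-trend. The epithelial gene *Cldn7* had a log2 fold change of 1.79 ± 0.92, and it, *Thy1* (log2 -0.03) and *Zeb1* (0.54) were not called. Of 19 collagen, laminin and related matrix genes, 18 were tested, 12 were higher and none was lower, with a median log2 fold change of 1.5 over the tested genes, 6 of which had enough counts only at Day 3. Of the 12 others 8 were higher. *Col1a1* had 0.4, 3.88 and 0.26 TPM in EpiSCs and 223.8 TPM at Day 3 (log2 8.51, or 9.18 without EpiSC replicate 2), and *Sparc* rose by 1.18 to 269.9 TPM. The laminin genes *Lama5* (-0.23) and *Lamc1* (0.03) were not called.

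**Figure D4:**
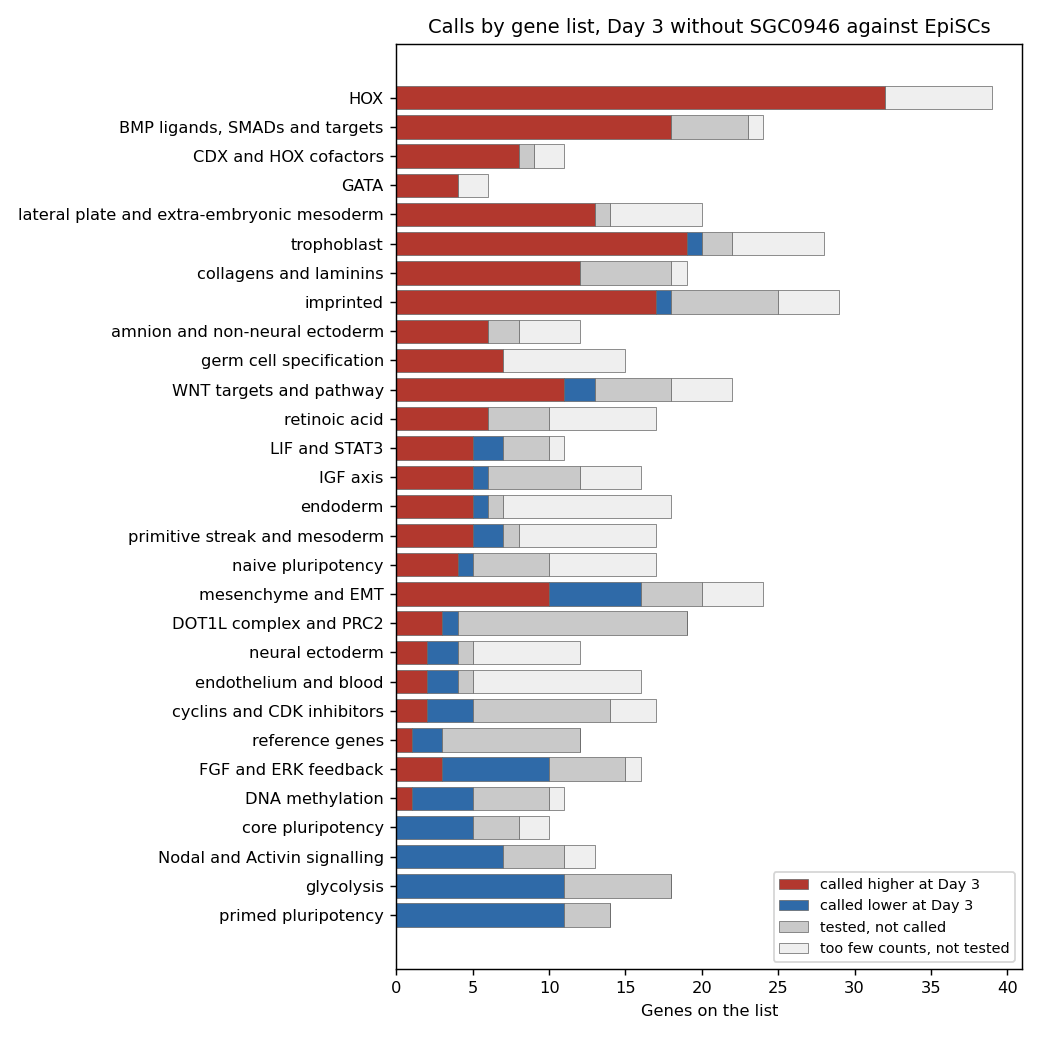
For each of 29 gene lists, the bar gives how many listed genes were called higher (red), called lower (blue), tested but not called (grey) or too low to test (pale). Higher calls dominate in the HOX list, with 32 of 39, and lower calls in the primed pluripotency list, with 11 of 14, and in glycolysis, with 11 of 18. The lists overlap.

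Of 18 listed glycolysis genes, all tested, 11 were lower, none was higher and 7 were not called, with a median log2 fold change of -1.18, and the summed level of the list went from between 29917.5 and 32015.7 to 17590.7 TPM. *Pgk1* fell 4.29-fold, from 1384, 1617.7 and 1583.3 to 380.4 TPM, and *Ldha*, which makes lactate, fell 3.57-fold, from 1688.6, 1908.2 and 1953.8 to 551.3 TPM. *Aldoa* fell 3.15-fold, and *Eno1* and *Pkm* fell by 1.33 and 1.17 on the log2 scale. *Pgk1* shares 68.8% and *Eno1* 81.5% of the transcript with a near-identical gene copy, so counts could be divided between copies. *Gapdh* (log2 -0.43), *Pgam1* (-0.93) and *Gpi1* (-0.78) were not called. Only 2 of the 11 falls exceeded 4-fold.

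Among reference genes, 9 of 12 were not called, among them *Ppia* (log2 -0.37) and *Eef1a1* (-0.22), while *Hprt* and *Pgk1* were lower and *B2m* was higher. *Hprt* fell from 192.1, 194.2 and 198.3 to 42.6 TPM. Of the cyclins and their inhibitors, 2 of 14 tested were higher and 3 lower, against 13.9% and 9.83% of all tested genes. Of the D cyclins, *Ccnd1* fell from between 129.4 and 151.4 to 34.9 TPM and *Ccnd2* rose 6.42-fold to 85.8 TPM, and *Cdk6* fell 15.6-fold from between 44.5 and 52.9 to 3.17 TPM. The imprinted CDK inhibitor gene *Cdkn1c* had 4, 0 and 0 counts and then 114 counts (26.9 TPM).

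Of 11 DNA methylation genes, 10 were tested, 4 were lower and 1 was higher. *Dnmt3b*, the de novo methyltransferase of the epiblast, fell 19.5-fold from 678.6, 731.5 and 710.4 to 39.1 TPM, and *Dnmt3a* fell 2.96-fold. *Tet1* fell 4.47-fold and *Tet3*, which like it oxidises methylcytosine, rose 2.85-fold. The maintenance genes *Dnmt1* (log2 0.45) and *Uhrf1* (-0.20) were not called. Most genes of the DOT1L complex and of PRC2 were not called either. Of 19 tested, 3 were higher and 1 lower, against 13.9% and 9.83% of all tested genes. *Dot1l* had 83.5, 63.8 and 59.5 TPM in EpiSCs and 62.1 TPM at Day 3 (log2 -0.10 ± 0.12), and *Ezh2*, the target of EPZ6438, had a log2 fold change of -0.01 ± 0.11. *Mllt3*, a DOT1L partner, rose by 3.31, and *Phf19* and *Aff1* rose by 1.49 and 1.25 on the log2 scale.

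The defining markers of other cell types were low, but the wider lists were mixed. Of the endoderm markers, *Sox17* had 10 counts (3.38 TPM) and *Foxa2*, named after its values were seen, 1 count at Day 3. Of 18 listed endoderm genes, 7 were tested, 5 were higher and 1 was lower. Of these 7, 3 had enough counts only at Day 3. The endoderm list summed to 206.6 to 217.3 TPM in EpiSCs and 461.5 TPM at Day 3. Of 5 tested endothelium and blood genes, 2 were higher and 2 lower, and the same held for 5 tested neural genes. The 4 endothelium and blood markers summed to 0.29 to 1.34 TPM in EpiSCs and 23.6 TPM at Day 3, of which *Kdr* gave 12.7 TPM and *Pecam1* 10.1 TPM. *Kdr* also marks mesoderm and *Pecam1* pluripotent cells. The neural markers *Sox1* and *Pax6* summed to 3.33 to 3.74 TPM in EpiSCs and 0.17 TPM at Day 3, and *Nes*, nestin, fell 15.0-fold from between 141.5 and 166.3 to 12.1 TPM. *Pax3*, a gene of the dorsal neural tube, had no count in EpiSCs and 7.75 TPM at Day 3. The part of other cell types in the changes above was not tested. The called genes had a median GC content of 52.4% (higher) and 51.4% (lower) against 50.1% over all tested genes, and 4.89% of higher, 4.14% of lower and 3.55% of tested genes lay on chromosome X.

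The matching Day 3 library with SGC0946 gives the levels side by side, with no test, since each condition has 1 library and both would be set against the same EpiSC libraries. *Igf2* was at 7044.5 TPM with and 11786 TPM without the inhibitor, *Vim* at 1505.5 and 1589 TPM, and *Gata2* at 82.1 and 95.1 TPM. The HOX genes summed to 619.5 and 1619.5 TPM. *Pou5f1* was at 549.1 and 67.3 TPM, and *Nanog* at 64.6 and 7.38 TPM. *Klf2* was at 121.3 and 15.6 TPM. The EpiSC markers together were at 591 TPM with and 107.2 TPM without it, below the EpiSC values in both.

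A second set of Day 3 libraries, sorted for c-Kit into 2 positive and 2 negative libraries, was fitted on its own gene list, in which 1418 of 11018 genes (12.9%) were higher in c-Kit-negative and 1100 (9.98%) in c-Kit-positive cells. The treatments differ, since the sorted cells were kept in the first-stage medium, which the study's methods list with a DOT1L inhibitor (EPZ5676 or SGC0946), and the Day 3 library compared with EpiSCs had none. No library is shared with the EpiSC comparison. Of 1284 genes higher at Day 3 and tested in both, 409 (31.9%) were higher in c-Kit-negative and 147 (11.4%) in c-Kit-positive cells. Of 842 lower genes, 149 (17.7%) were higher in c-Kit-negative and 234 (27.8%) in c-Kit-positive cells. The shares among uncalled genes were 8.57% and 7.39%. The trophoblast genes higher at Day 3 were mostly on the c-Kit-negative side, with 15 of 19 higher there and 1 higher in c-Kit-positive cells, and so were the collagen and laminin genes, with 8 of 9. Of 15 imprinted genes higher at Day 3 and tested there, 7 were higher in c-Kit-negative and 2 in c-Kit-positive cells. Some other lists of genes higher at Day 3 went the other way. Of 7 germ cell genes 5 were higher in c-Kit-positive and 1 in c-Kit-negative cells, and of 7 CDX genes and HOX cofactors 4 and none. Only 4 of the 32 higher HOX genes were tested there, with 3 and none. Of 13 BMP genes 3 were higher in c-Kit-positive and 1 in c-Kit-negative cells, and most were called in neither direction. All 7 lower Nodal genes and all 5 lower core pluripotency genes were higher in c-Kit-positive cells. *Kit* itself, the gene of the sort, had a log2 fold change of -5.28 ± 0.21 in c-Kit-negative relative to c-Kit-positive cells, the direction of the labels. *Gata2* was at 59.5 and 24.3 TPM in c-Kit-positive and 436.6 and 385.6 TPM in c-Kit-negative cells, and *Igf2* at 2283.6 and 1590.5 against 12048.8 and 12253.3 TPM. *Vim* was at 83.6 and 51.0 against 78.8 and 57.8 TPM and was not called.

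**Figure D5:**
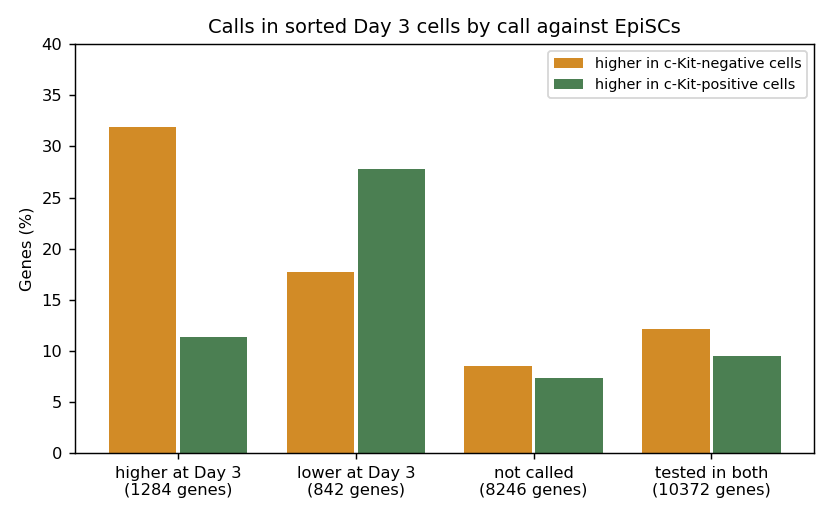
Bars give the share of genes called higher in c-Kit-negative (orange) and in c-Kit-positive (green) sorted Day 3 cells, for genes called higher or lower at Day 3 against EpiSCs, for genes not called and for all genes tested in both. Genes higher at Day 3 were called 31.9% on the c-Kit-negative and 11.4% on the c-Kit-positive side, and genes lower at Day 3 were called 17.7% and 27.8%.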

How the data were processed

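Bulk RNA was sequenced from EpiSCs and Day 3 cells. The authors aligned reads with Bowtie2 and estimated abundances with RSEM 1.3.1 (per the labels, build mm10). The expected counts per gene that they deposited are not normalized between libraries. The TPM that they deposited are RSEM's abundances, corrected for effective transcript length and scaled to the same total in every library. The labels name total RNA depleted of ribosomal RNA, the methods name an mRNA kit, and they also differ in the sequencer. The labels of these libraries share a protocol text that names EPZ5676 as DOT1L inhibitor, and the methods name EPZ5676 or SGC0946. The strand setting of the counting was not given in the sources used here.

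Expected counts were rounded, filtered with filterByExpr (minimum count 10, or 3.31 CPM in the median library), scaled with TMM and tested in R 4.3.3 with edgeR 4.0.16 (quasi-likelihood, 2 residual degrees of freedom, EpiSC and Day 3 libraries only). The sorted Day 3 cells were fitted apart, since their table lists 50600 genes. Same-numbered sorted libraries deviated together weakly (correlation 0.114, 2 pairs). Standard errors are of the log2 fold change. Folds against libraries with no count were computed against 3 counts, 1.25 CPM in EpiSCs (the largest of the 3 libraries) and 0.632 CPM at Day 3, and are lower bounds. Ratios for genes with 1 to 3 counts carry exact 95% intervals of counting error. No pair of EpiSC libraries agreed within sampling noise. On simulated counts of the same depth (11152 genes), 22 of 50 genes changed 2-fold, 48 of 50 changed 4-fold and all 50 changed 8-fold were called in the right direction, with 3 of 10952 unchanged genes called. The simulated Day 3 library was given the same fitted spread as the EpiSC libraries, so these numbers cannot test that assumption. The changed genes were drawn from genes expressed in EpiSCs, so genes tested only through Day 3 are not covered.

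Symbols and coordinates came from GENCODE M21 (GRCm38), which named 98.25% of the identifiers. Shared sequence (at least 98% identity over 75 bases) was found with BLAST+ 2.17.0. The members and the 29 gene lists were chosen with earlier results of these data known. Named genes are the 3 markers, the 10 largest rises and falls among protein-coding genes at 20 TPM or more, up to 5 called genes in each direction and 3 uncalled genes per list, and genes that the study names for these cells; others are marked where named, and some genes that the rule names are not reported here. Alternatives were other scaling, filters, tools, offsets and left-out libraries.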

Additional observations from a re-analysis of the deposited data

How the results depend on the processing

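The counts of 1676 higher and 1183 lower genes ranged, without 1 EpiSC library, from 1600 to 1703 and from 1125 to 1220. A minimum of 10 counts in every library gave 948 higher genes, since it removes genes that EpiSCs do not express (10060 tested). A fold change over 4 gave 860 higher and 525 lower genes. limma-trend on log2(TPM + 1) gave 769 lower genes, and the cause was not tested. DESeq2 gave 1222 and 969, no filter on low counts gave 1963 and 1221 and all 7 libraries gave 1247 and 881. Scaling by library size alone gave 1826 and 1068, offsets for effective length 1461 and 1075 and offsets for GC content 1672 and 1169. The numbers of c-Kit calls, 1418 and 1100, were 1401 and 1126 with the replicate number as a block, and from 1241 to 1530 and from 823 to 1378 without 1 library. Of the c-Kit-positive calls, the lowest number came without c-Kit-positive replicate 2. DESeq2 gave 1128 and 795.

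Of 152 named genes called, 104 kept the call in every alternative that tested them and none reversed. Among genes not called, *Klf2* reversed without EpiSC replicate 1, from -0.54 to 1.21 on the log2 scale (range without 1 EpiSC library -0.99 to 1.21), and *Junb* was called higher without it (1.26). A fold change over 4 lost 36 of the named calls, all 7 libraries in the fit 22, DESeq2 14 and limma-trend 13. Called in fewer alternatives than most were *Sox1*, *Apobec1*, *Dusp6*, *Kdm2b*, *Tagln* and *Pbx2*. With 1 Day 3 library, the spread between Day 3 cultures is unknown. At this depth a gene with no count in EpiSCs may be at up to 1.25 CPM there.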

Other observations

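Immediate-early genes, chosen after their values were seen, were uneven among EpiSCs. *Fos* was at 653.6, 105 and 98.7 TPM in EpiSC replicates 1, 2 and 3 and at 134.5 TPM at Day 3. *Fosb* was at 389.9, 52.2 and 62.4 TPM and at 16.8 TPM, and *Egr1* at 349.9, 83.7 and 168.1 TPM and at 30.6 TPM. The list summed to 2660.1, 711.3 and 728.8 TPM in EpiSCs and 650.3 TPM at Day 3. Of its 10 genes 3 were called lower, *Fosb*, *Egr1* and *Atf3*.

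The unsorted Day 3 library without SGC0946 and the sorted Day 3 cells differ in level for some genes. They also differ in treatment, since the first-stage medium of the sorted cells contains a DOT1L inhibitor per the study's methods. In the unsorted Day 3 library with SGC0946, the HOX genes summed to 619.5 TPM and *Vim* was at 1505.5 TPM. Sort, inhibitor and other differences between the experiments cannot be told apart, and the cause of the differences in level was not tested. The tables were normalized separately and list different genes, so levels are given side by side with no test. The 39 HOX genes summed to 1619.5 TPM in the unsorted library, to 160.5 and 139.8 TPM in c-Kit-positive cells and to 55.1 and 46.8 TPM in c-Kit-negative cells. *Vim* was at 1589 TPM in the unsorted library and between 51.0 and 83.6 TPM in the sorted ones. *Pou5f1* was at 67.3 TPM in the unsorted library, 1226 and 1291 TPM in c-Kit-positive cells and 73.9 and 62.7 TPM in c-Kit-negative cells. *Kit* was at 101.9 TPM in the unsorted library, 99.6 and 96.0 TPM in c-Kit-positive cells and 4.81 and 3.24 TPM in c-Kit-negative cells. The trophoblast list summed to 5499.4 TPM in the unsorted library, 4581.4 and 3865.9 TPM in c-Kit-positive and 19025.7 and 17498.6 TPM in c-Kit-negative cells.

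Most histone mRNAs lack a poly(A) tail. The 65 histone genes listed took 0.0043% to 0.0062% of the counts in EpiSCs and 0.0047% at Day 3. *Malat1* was at 215.7, 82.0 and 112.9 TPM in EpiSCs and 72.7 TPM at Day 3.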
